A study of Arabidopsis thaliana with 9 samples.

Results

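Transcripts of 6 Arabidopsis thaliana kinases of pattern-triggered immunity were followed in leaves of 3 genotypes, cat2 rbohF, cat2 rbohD and cat2. The 6 were chosen by name: the flagellin receptor FLS2 (AT5G46330), the receptor-like cytoplasmic kinase BIK1 (AT2G39660), the flagellin-induced kinase FRK1 (AT2G19190), the cysteine-rich receptor-like kinases CRK36 (AT4G04490) and CRK37 (AT4G04500), and the S-domain receptor-like kinase B120 (AT4G21390). The choice was made with earlier results of these data known. Each kinase was read by 1 probe set, so 6 of the 22746 non-control probe sets were followed. All 6 passed the filter that kept 13888 for testing. BIK1 (267624_at) and B120 (254408_at) were found through the probe annotation. The probe sets of FLS2 (248895_at), FRK1 (267436_at), CRK36 (255340_at) and CRK37 (255341_at) were given by probe set identifier together with their genes, a pairing that the annotation used here did not list and that was therefore not checked.

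All 3 genotypes were in the Columbia-0 ecotype and carried a mutation in the catalase gene CAT2 (line cat2-2), alone or with a mutation in 1 NADPH oxidase gene (lines atrbohF and atrbohD in the sample titles). Each genotype had 3 arrays, and each array held RNA of its own leaf pool, taken from 8 or more plants aged 3 weeks, grown at 200 μmol m-2 s-1 with 16 h of light. Wild-type leaves were not analysed here. Every level is therefore that of a plant mutated in CAT2, and every difference goes with an oxidase mutation added to that background. The labels did not say how either oxidase allele was made.

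In pattern-triggered immunity, a receptor kinase at the cell surface binds a microbial molecule and passes the signal to cytoplasmic kinases. FLS2 binds bacterial flagellin, and BIK1, which sits at the receptor complex, is released on activation and phosphorylates RBOHD, the oxidase that makes most of the apoplastic oxidative burst. FRK1 is a leucine-rich repeat receptor-like kinase whose transcript is a common marker of early flagellin responses. CRK36 belongs to a large family of receptor-like kinases with cysteine-rich extracellular domains, many of them induced by pathogens and reactive oxygen, and has been described as a partner of BIK1. CRK37 belongs to the same family, and the 2 genes lie side by side in the RefSeq gene table, followed by CRK38. B120 has a lectin-like S-domain outside the cell, and lies between RK3 and CRK28 in that table.

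Values are log2 expression per probe set, on which a difference of 1 is a 2-fold change. Each of the comparisons was fitted with limma over all tested probe sets, and "fell" or "rose" is used only where the Benjamini-Hochberg adjusted p, taken over all 13888, was under 0.05. In bulk leaf RNA, fewer cells of a type and less RNA per cell cannot be told apart. The array cat2 rbohD replicate 3 stood apart from its genotype. Over all tested probe sets its root mean square difference was 0.270 from the mean of the cat2 rbohF arrays and 0.306 from the mean of the other cat2 rbohD arrays, so the kinase fold changes that use it, and the counts of calls, are also given without it. Replicate 2 of cat2 rbohD was also nearer another genotype, at 0.202 from the mean of the cat2 arrays and 0.231 from the mean of the other cat2 rbohD arrays. The mean of an array's own genotype held fewer arrays than the other means, which by itself raises the difference from it. For replicate 2 it also held replicate 3. Of 23 marker genes of leaf and other cell types, 5 had a named probe set. The mesophyll marker RCA averaged 14.16 in cat2 rbohF, 14.15 in cat2 rbohD and 14.13 in cat2, and the root marker AT5G66390 was near the lowest values of the arrays, at 3.48, 3.40 and 3.46 in the same order. The other root marker, PYK10, averaged 8.96 ± 0.23 in cat2 rbohF, 8.00 ± 0.15 in cat2 rbohD and 7.62 ± 0.59 in cat2 (SD, n = 3 each), and rose in cat2 rbohF against cat2 (log2 fold change 1.35; limma adjusted p = 0.00836). The guard cell marker FMA averaged 5.58, 5.17 and 5.43 in that order, with a log2 fold change of 0.41 in cat2 rbohF against cat2 rbohD (limma adjusted p = 0.0527), and the guard cell marker AT1G22690 averaged 9.37, 9.59 and 9.47. The ratio of 3′ to 5′ signal of the GAPDH control probe sets, a measure of RNA integrity, spanned 0.87 to 0.99 in cat2 rbohF, 0.81 to 0.95 in cat2 rbohD and 0.69 to 0.79 in cat2 (log2). The same ratio for Actin spanned 2.32 to 2.66, 2.39 to 2.73 and 2.46 to 2.80 in that order, and for Ubq 1.24 to 1.34, 1.21 to 1.28 and 1.25 to 1.42, so that for both controls all genotypes overlapped. PYK10 and the GAPDH ratio were higher in cat2 rbohF than in cat2. The GAPDH ratio was also higher in cat2 rbohD than in cat2, without overlap. The part of PYK10 and of this ratio in the kinase results was not tested.

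FLS2, the receptor, was close to the filter value of 5.14 and gave the smallest differences of the 6 transcripts between either double mutant and cat2, apart from CRK37 in cat2 rbohD. Its levels were 5.40, 5.39 and 5.33 in cat2 rbohF, 5.81, 5.40 and 5.06 in cat2 rbohD, and 5.84, 5.78 and 5.26 in cat2. All 3 genotypes overlapped, and the spread within cat2 rbohD and within cat2 exceeded the distance between the genotype means of 5.37, 5.42 and 5.63. The log2 fold change was -0.26 in cat2 rbohF against cat2, with a 95% interval of -0.69 to 0.18 (limma adjusted p = 0.421). At this dim probe set the interval thus holds differences of up to 0.69 downward and 0.18 upward.

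BIK1, the kinase that acts directly upstream of RBOHD, showed small differences, of which only that between cat2 rbohF and cat2 passed. Its levels were 8.27, 8.51 and 8.35 in cat2 rbohF, 8.54, 8.54 and 8.58 in cat2 rbohD (replicates 1 and 2 held the same deposited value), and 8.65, 8.90 and 8.85 in cat2. The 3 genotypes did not overlap, with cat2 rbohF lowest and cat2 highest, and the highest cat2 rbohF array lay 0.14 below the lowest cat2 array. The gap was 0.078 between cat2 rbohD and cat2 and 0.035 between the double mutants. Of all tested probe sets, 7.24% and 13.4% were without overlap and lower in these comparisons, in that order. BIK1 fell 1.34-fold in cat2 rbohF against cat2, a log2 fold change of -0.43 ± 0.09 (SE; limma adjusted p = 0.0147). Leaving out 1 array ended this call in 3 cases, namely cat2 replicate 2 (limma adjusted p = 0.0582), the first cat2 rbohF array (0.0678) and cat2 rbohF replicate 3 (0.0535). In cat2 rbohD, which carries a mutation in the oxidase that BIK1 activates, the log2 fold change against cat2 was -0.25 and did not pass (limma adjusted p = 0.362).

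**Figure D1:**
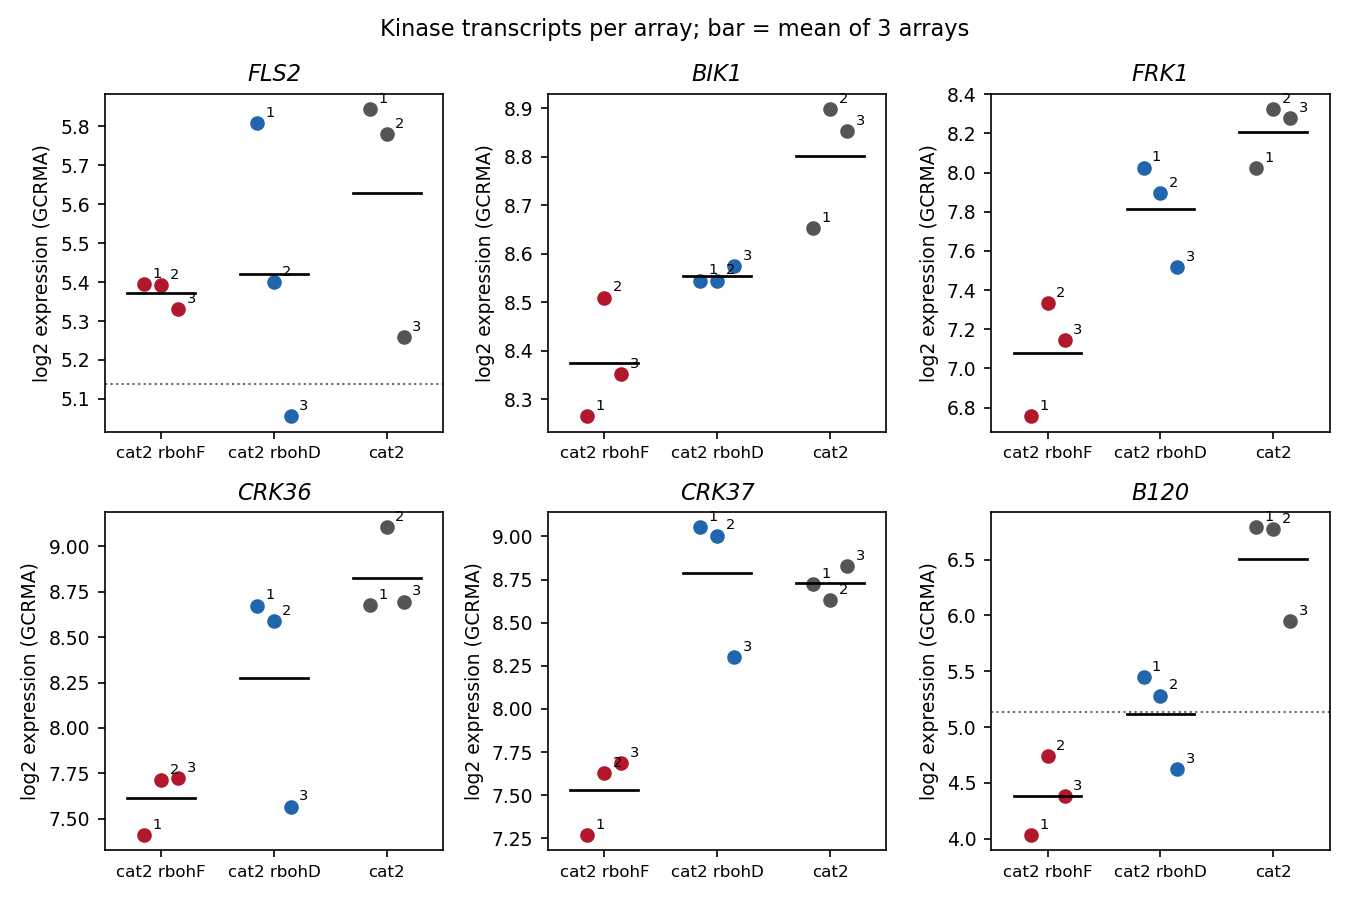
Log2 expression of the 6 kinase transcripts on each of the 9 arrays (points, with replicate numbers; bar, mean of 3 arrays), with cat2 rbohF on the left, cat2 rbohD in the middle and cat2 on the right; the dotted line marks the filter value of 5.14 and each panel has its own y axis. Except for FLS2, the 3 cat2 rbohF arrays lie below all 3 cat2 arrays in every panel.

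FRK1, the marker of flagellin-triggered transcription, was lowest in cat2 rbohF. It measured 6.76, 7.33 and 7.15 in cat2 rbohF, 8.02, 7.89 and 7.52 in cat2 rbohD, and 8.02, 8.33 and 8.28 in cat2. Every cat2 rbohF array was below every array of the other genotypes, while cat2 rbohD replicate 1 reached the lowest cat2 array. FRK1 fell 2.19-fold in cat2 rbohF against cat2, a log2 fold change of -1.13 ± 0.17 (SE; limma adjusted p = 0.00377). This call held without any single array, with a limma adjusted p of at most 0.0198.

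The neighbouring genes CRK36 and CRK37 both fell in cat2 rbohF, and their cat2 rbohD arrays lay differently. CRK36 measured 7.41, 7.71 and 7.73 in cat2 rbohF, 8.67, 8.59 and 7.57 in cat2 rbohD, and 8.68, 9.10 and 8.70 in cat2. Replicates 1 and 2 of cat2 rbohD thus lay just under the lowest cat2 array, and replicate 3 lay among the cat2 rbohF arrays. CRK37 measured 7.27, 7.63 and 7.69 in cat2 rbohF, 9.05, 9.004 and 8.30 in cat2 rbohD, and 8.72, 8.63 and 8.83 in cat2. Here 2 of the cat2 rbohD arrays were above all cat2 arrays and replicate 3 was below them, and all 3 were above every cat2 rbohF array. In cat2 rbohF against cat2, CRK36 fell 2.31-fold, with a log2 fold change of -1.21 ± 0.26 (SE; limma adjusted p = 0.0156), and CRK37 fell 2.30-fold, with one of -1.20 ± 0.19 (SE; limma adjusted p = 0.00454). CRK37 stayed called without any single array, whereas the call of CRK36 ended when the second cat2 array (limma adjusted p = 0.0631) or the first cat2 rbohF array (0.0697) was left out. Transcripts of this family are alike in sequence, and whether the probes of 1 gene also bind another was not checked.

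B120, the S-domain kinase, showed the largest difference of the 6. It measured 4.04, 4.74 and 4.38 in cat2 rbohF, 5.45, 5.28 and 4.62 in cat2 rbohD, and 6.79, 6.77 and 5.95 in cat2. Both double mutants lay wholly below cat2, with the cat2 rbohF arrays 1.21 and the cat2 rbohD arrays 0.50 under the lowest cat2 array, and cat2 rbohD replicate 3 lay within the cat2 rbohF range. B120 fell 4.34-fold in cat2 rbohF against cat2, a log2 fold change of -2.12 ± 0.28 (SE; limma adjusted p = 0.00257), and kept the call without any single array. All 3 cat2 rbohF arrays and 1 cat2 rbohD array read below 5.14, the filter value, so the fold changes of B120 rest on dim values. B120 passed the filter through cat2, whose arrays held its 3 highest values. In the fit without a filter it was called as well (limma adjusted p = 0.00325).

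Across the kinases, 5 of 6 fell in cat2 rbohF against cat2, where 9.89% of all tested probe sets fell. The groups did not overlap at these same 5, against 19.8% of probe sets whose cat2 rbohF arrays were all below cat2. The median log2 fold change of the 6 was -1.16, beside 0.01 over all tested probe sets. Because the 6 were chosen with earlier results of these data known, these shares describe them and are no independent comparison. Of the tested probe sets, 0.0720% had a lower log2 fold change than B120, 1.08% than CRK36, 1.14% than CRK37, 1.35% than FRK1, 8.97% than BIK1 and 16.1% than FLS2. The count of 5 was 3 without cat2 replicate 2, where 4.95% of all tested probe sets fell. Without cat2 rbohF replicate 1 it was 3, where 4.09% fell, and without cat2 rbohF replicate 3 it was 4, where 5.57% fell. With the replicate number as a block the count was 5, where 10.2% fell.

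**Figure D2:**
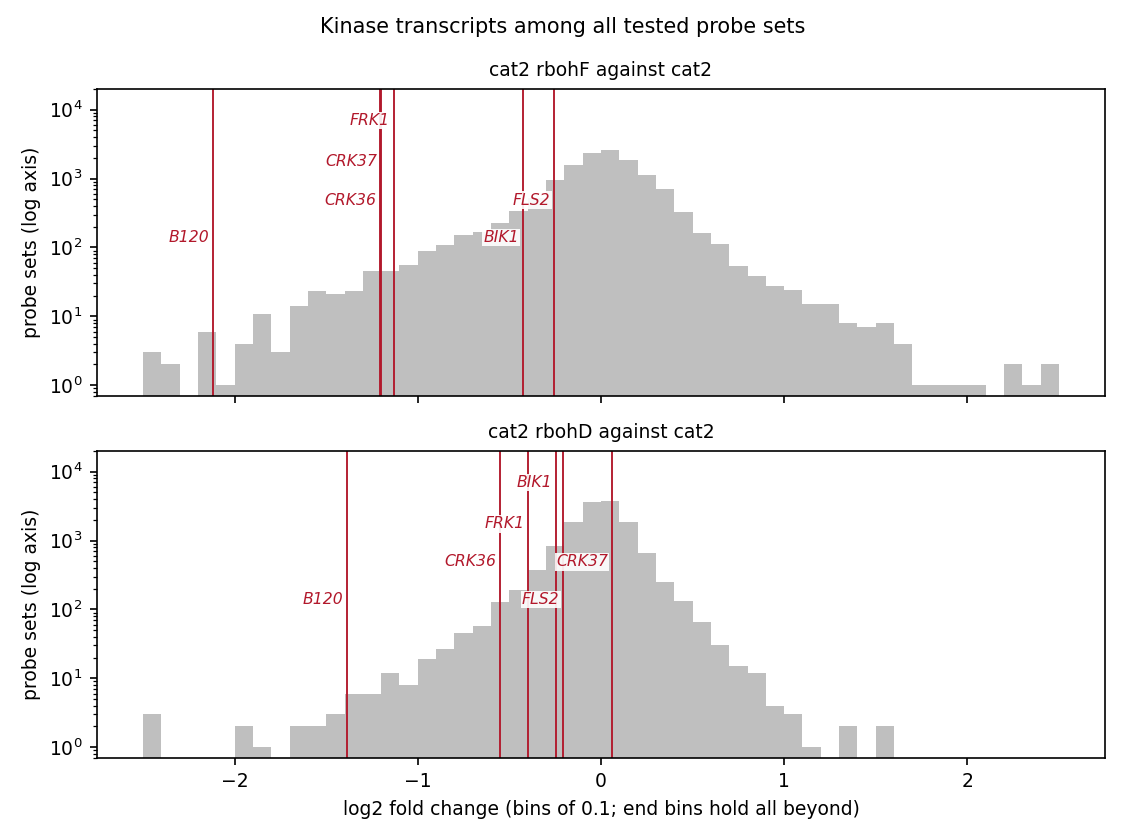
Number of tested probe sets (log axis) in bins of log2 fold change, for cat2 rbohF against cat2 (top) and cat2 rbohD against cat2 (bottom), with red lines at the 6 kinases. In the top panel B120, CRK36, CRK37 and FRK1 lie at -2.12 to -1.13, in the lower tail, and BIK1 and FLS2 lie on its shoulder; in the bottom panel only B120, at -1.38, lies below -1.

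In cat2 rbohD against cat2, the comparison that asks what mutation of the BIK1 target oxidase changes, none of the 6 kinases passed with limma, and 3 had an unadjusted p under 0.05, where 0.187% of all tested probe sets fell and 10.8% had such a p. The largest difference was again at B120, at -1.38 with a 95% interval of -2.02 to -0.75 (limma adjusted p = 0.111). CRK36 was at -0.55 (-1.14 to 0.04; limma adjusted p = 0.502), FRK1 at -0.40 (-0.78 to -0.01; 0.445), FLS2 at -0.21 (-0.64 to 0.23; 0.755) and CRK37 at 0.06 (-0.37 to 0.49; 0.940). The groups did not overlap at 3 of 6, namely B120, CRK36 and BIK1, with cat2 rbohD lower at each, beside 7.24% of all probe sets. At CRK36 the gap between the groups was only 0.0034. Without cat2 rbohD replicate 3 the log2 fold changes were -1.14 for B120, -0.26 for BIK1, -0.25 for FRK1, -0.20 for CRK36, -0.02 for FLS2 and 0.30 for CRK37, and none passed. None passed under any alternative setting tried. The 3 cat2 arrays serve as reference in this comparison and in the one before it.

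**Figure D3:**
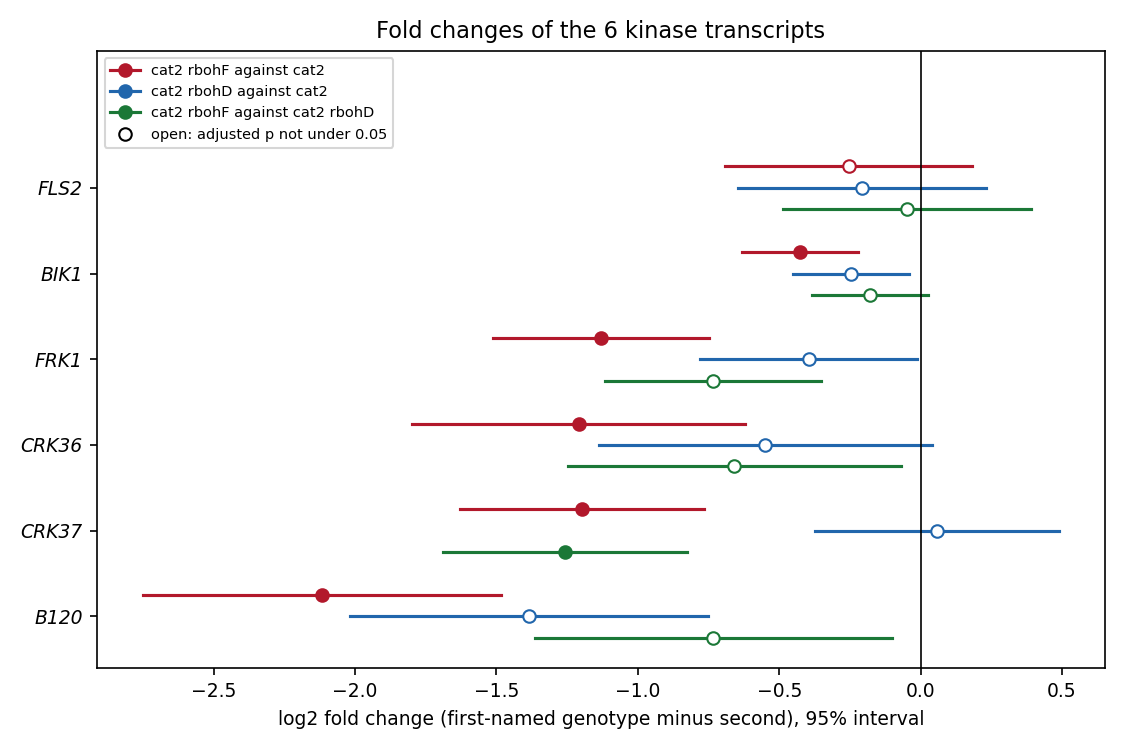
Log2 fold change (points) with 95% interval (lines) of each kinase transcript, for cat2 rbohF against cat2 (red), cat2 rbohD against cat2 (blue) and cat2 rbohF against cat2 rbohD (green); filled points had a limma adjusted p under 0.05. Filled red points mark BIK1, FRK1, CRK36, CRK37 and B120, no blue point is filled, and CRK37, at -1.26, has the only filled green point.

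The double mutants were compared directly to test whether mutation of RBOHF and of RBOHD differ in effect. CRK37 was the only one of the 6 that passed, 2.39-fold lower in cat2 rbohF than in cat2 rbohD, where 1.06% of all tested probe sets were called lower. Its log2 fold change was -1.26 ± 0.19 (SE; limma adjusted p = 0.0320), and all 3 cat2 rbohF arrays lay at least 0.61 below all 3 cat2 rbohD arrays. FRK1 was at -0.73 (95% interval -1.12 to -0.35; limma adjusted p = 0.0555), without overlap. B120 was at -0.73 (-1.36 to -0.10; 0.169), CRK36 at -0.66 (-1.25 to -0.07; 0.183), BIK1 at -0.18 (-0.38 to 0.03; 0.284) and FLS2 at -0.05 (-0.49 to 0.39; 0.914). The groups did not overlap at 3 of 6, CRK37, FRK1 and BIK1, each lower in cat2 rbohF, beside 13.4% of all probe sets.

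The calls in this comparison turned on single arrays. Without cat2 rbohD replicate 3, 3 kinases passed, CRK37 at -1.50 (limma adjusted p = 0.00426), CRK36 at -1.01 (0.0104) and FRK1 at -0.88 (0.0191), while B120 was at -0.98 (0.0570), BIK1 at -0.17 (0.339) and FLS2 at -0.23 (0.444). Over all probe sets the number called was 267 with every array and 1065 without that one. Leaving out replicate 1, 2 or 3 of cat2 rbohF gave 1, 262 and 8, leaving out replicate 1 or 2 of cat2 rbohD gave 4 and 3, and leaving out replicate 1, 2 or 3 of cat2 gave 39, 107 and 74. The call of CRK37 ended when any 1 of 5 arrays was left out: the first array of each genotype, the second of cat2 rbohD and the third of cat2 rbohF. The limma adjusted p then lay between 0.0503 and 0.166. With only the 6 arrays compared the call was lost too (limma adjusted p = 0.0818). The log2 fold change of CRK37 stayed between -1.50 and -1.12 with any 1 array left out.

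Array by array, several of the kinases were lowest on the same arrays. How many of all tested probe sets did the same was not counted, so these counts describe the 6 only. Over all tested probe sets, the root mean square difference of cat2 rbohD replicate 3 was also smaller from cat2 rbohF (0.270) than from its own genotype (0.306). In cat2 rbohD replicate 3, all 6 kinases were below every cat2 array and 5 were the lowest of their genotype, BIK1 being the exception. In cat2 rbohF replicate 1, 5 of 6 were the lowest of their genotype, with FLS2 the exception. The median difference of the 6 from the cat2 mean was -1.43, -0.99 and -1.05 on cat2 rbohF replicates 1, 2 and 3. On cat2 rbohD replicates 1, 2 and 3 it was -0.17, -0.25 and -0.63. The cat2 rbohD arrays also varied most over all tested probe sets, with a mean variance of 0.0502 against 0.0212 in cat2 rbohF and 0.0285 in cat2.

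**Figure D4:**
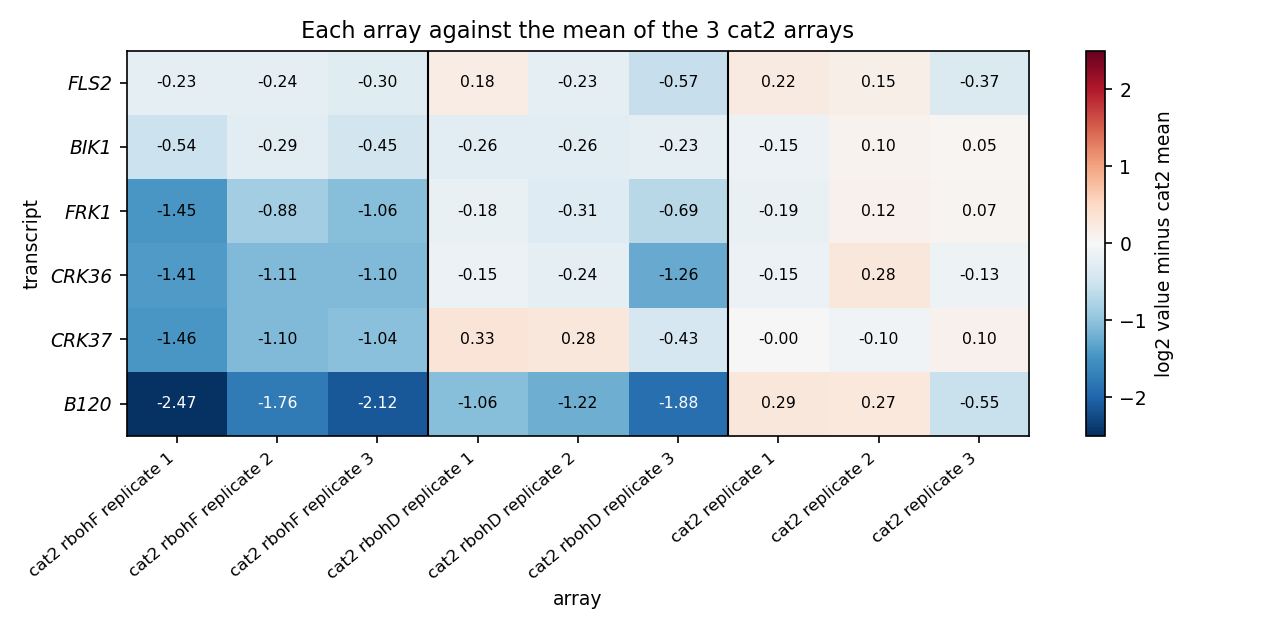
Log2 value of each kinase transcript (rows) on each array (columns) minus its mean over the 3 cat2 arrays, coloured blue where lower and red where higher, with the difference printed in each cell. Every cell of cat2 rbohF is below 0, and cat2 rbohD replicate 3 is lower than its genotype's other arrays for every kinase but BIK1.

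How alike the profiles were was measured as the root mean square difference of log2 values over the 9 arrays, after each probe set was centred on its own mean. This is a description of these arrays, which share the genotype differences. Among the 15 pairs of kinases, FRK1 and CRK36 were closest at 0.212, followed by FRK1 and CRK37 at 0.270. The neighbouring genes CRK36 and CRK37 were farther apart, at 0.337. BIK1 and FLS2, whose products act in the same receptor complex, differed by 0.279. The median difference from the other tested probe sets of a single named gene was 0.241 for BIK1 and 0.299 for FLS2. The pair thus lay between these medians. The measure grows with the size of a transcript's own differences between arrays. B120, with the largest of these, was farthest from FLS2, at 0.795.

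The same measure was then taken against the 7433 other tested probe sets of a single named gene. For FLS2, the closest profile was that of SD1-29, an S-domain receptor kinase that senses bacterial 3-hydroxy fatty acids, at 0.0927, beside a median of 0.299 over all 7433. SD1-29 averaged 6.81 ± 0.09 in cat2 rbohF, 6.96 ± 0.37 in cat2 rbohD and 7.07 ± 0.28 in cat2 (SD, n = 3 each). Neither SD1-29 nor FLS2 was called in any comparison, and the measure also takes in spread between arrays of the same genotype. Next to FLS2 came AT1G74750 and AT5G06560, at 0.132 and 0.133. For FRK1, the closest were AT5G08240 at 0.0879, AT1G51890 at 0.0990 and AT2G18690 at 0.118, beside a median of 0.531. AT1G51890 is also one of the flagellin-induced marker genes taken up further on. For BIK1 they were AT4G23050, AT5G48655 and AT1G33600, at 0.0599, 0.0601 and 0.0623, beside a median of 0.241.

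CRK37 was nearest to RING1, a RING-type ubiquitin ligase, at 0.159, to AT4G00700 at 0.161 and to AT2G18690 at 0.199, beside a median of 0.640. RING1 averaged 9.57 in cat2 rbohF, 10.63 in cat2 rbohD and 10.52 in cat2, so that it too was about as high in cat2 rbohD as in cat2. CRK36 was nearest to AT1G08050 at 0.139, AT3G25610 at 0.152 and AT4G01870 at 0.156, beside a median of 0.609. B120 was nearest to AT3G02840 at 0.228, AT2G23270 at 0.262 and AT1G26380 at 0.269, beside a median of 0.959.

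Other genes of the same signalling were taken from 8 lists of 170 loci. The lists too were chosen with earlier results of these data known, so the shares beside their counts are descriptions only. Only 47 of these had a probe set with 1 named gene and 28 were tested. No tested probe set was available for the other CRK genes, the MAP kinase and calcium-dependent kinase relay or the NADPH oxidases. In cat2 rbohF against cat2, 11 of the 28 genes fell, none rose and 17 did not pass, where 9.89% of all tested probe sets fell. Their median log2 fold change was -0.39, beside 0.01 over all tested probe sets, and 22 of 28 were negative, beside 48.5% of all. With the replicate number as a block, 13 fell and 1 rose, where 10.2% of all tested probe sets fell and 6.4% rose. The block added calls of AT1G69790, AT1G11330, AT1G51790 and PDF1.4, of which PDF1.4 rose, and ended that of AT1G34300. Without cat2 rbohD replicate 3, 16 fell and 1 rose, where 11.5% and 8.0% of all did.

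Of the other pattern receptors and co-receptors, none of 4 passed in cat2 rbohF. EFR, the receptor for bacterial elongation factor Tu, averaged 5.51 ± 0.11 in cat2 rbohF and 5.76 ± 0.23 in cat2 (SD, n = 3 each; log2 fold change -0.25; limma adjusted p = 0.177). AT1G27190 was at 0.15 (limma adjusted p = 0.243). Without cat2 replicate 3, EFR passed, with a log2 fold change of -0.37 (limma adjusted p = 0.0475). Only 4 of the 25 loci of this list had a probe set. With every array kept, these 4 gave no call, like FLS2, which does not show that they were unchanged.

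Of the other receptor-like cytoplasmic kinases, the class to which BIK1 belongs, 2 of 6 fell in cat2 rbohF and 4 did not pass. AT5G47070 averaged 8.33 ± 0.16 in cat2 rbohF and 9.17 ± 0.08 in cat2 (SD, n = 3 each), a log2 fold change of -0.84 (limma adjusted p = 0.00382). AT3G09830 averaged 7.80 ± 0.07 and 8.60 ± 0.18 in the same order, a log2 fold change of -0.80 (limma adjusted p = 0.00399). Both kept the call without any single array.

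Of the other S-domain receptor kinases, the class of B120, 4 of 7 fell in cat2 rbohF and 3 did not pass. AT4G27300 averaged 7.97 ± 0.33 in cat2 rbohF and 9.07 ± 0.05 in cat2 (SD, n = 3 each), and AT1G61370 averaged 5.72 ± 0.10 and 6.69 ± 0.10 in the same order. The log2 fold changes were -1.10 for AT4G27300, -0.97 for AT1G61370, -0.61 for AT2G19130 and -0.40 for AT1G34300 (limma adjusted p = 0.00229, 0.00104, 0.00893 and 0.0375). The first 3 kept the call without any single array. The call of AT1G34300 ended when cat2 replicate 2 or 3 or 1 array of cat2 rbohF was left out, at a limma adjusted p of at most 0.120. It also ended with the replicate number as a block (limma adjusted p = 0.0596), with each array centred on its median (0.0557) and with quantile normalization applied again (0.0563).

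Of the regulators of receptor complexes, PUB24, a U-box ubiquitin ligase that dampens pattern-triggered responses, fell with a log2 fold change of -1.09 ± 0.13 (SE; limma adjusted p = 0.00149), 1 of 4. It averaged 6.57 ± 0.14 in cat2 rbohF and 7.66 ± 0.12 in cat2 (SD, n = 3 each). The other 3 did not pass.

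Of the flagellin-induced marker genes besides FRK1, 4 of 8 fell in cat2 rbohF and 4 did not pass. Of those 4, PDF1.4 was higher in cat2 rbohF, at 7.48 ± 0.33 against 6.84 ± 0.29 in cat2 (SD, n = 3 each; log2 fold change 0.64; limma adjusted p = 0.0795). AT1G51890 averaged 7.69 ± 0.30 in cat2 rbohF and 8.91 ± 0.18 in cat2 (SD, n = 3 each), a log2 fold change of -1.21 (limma adjusted p = 0.00319), close to that of FRK1. AT1G51860 was at -1.06, the transcription factor gene WRKY6 at -1.02 and AT5G64870 at -0.84 (limma adjusted p = 0.00358, 0.00302 and 0.00183). These 4 kept the call without any single array.

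**Figure D5:**
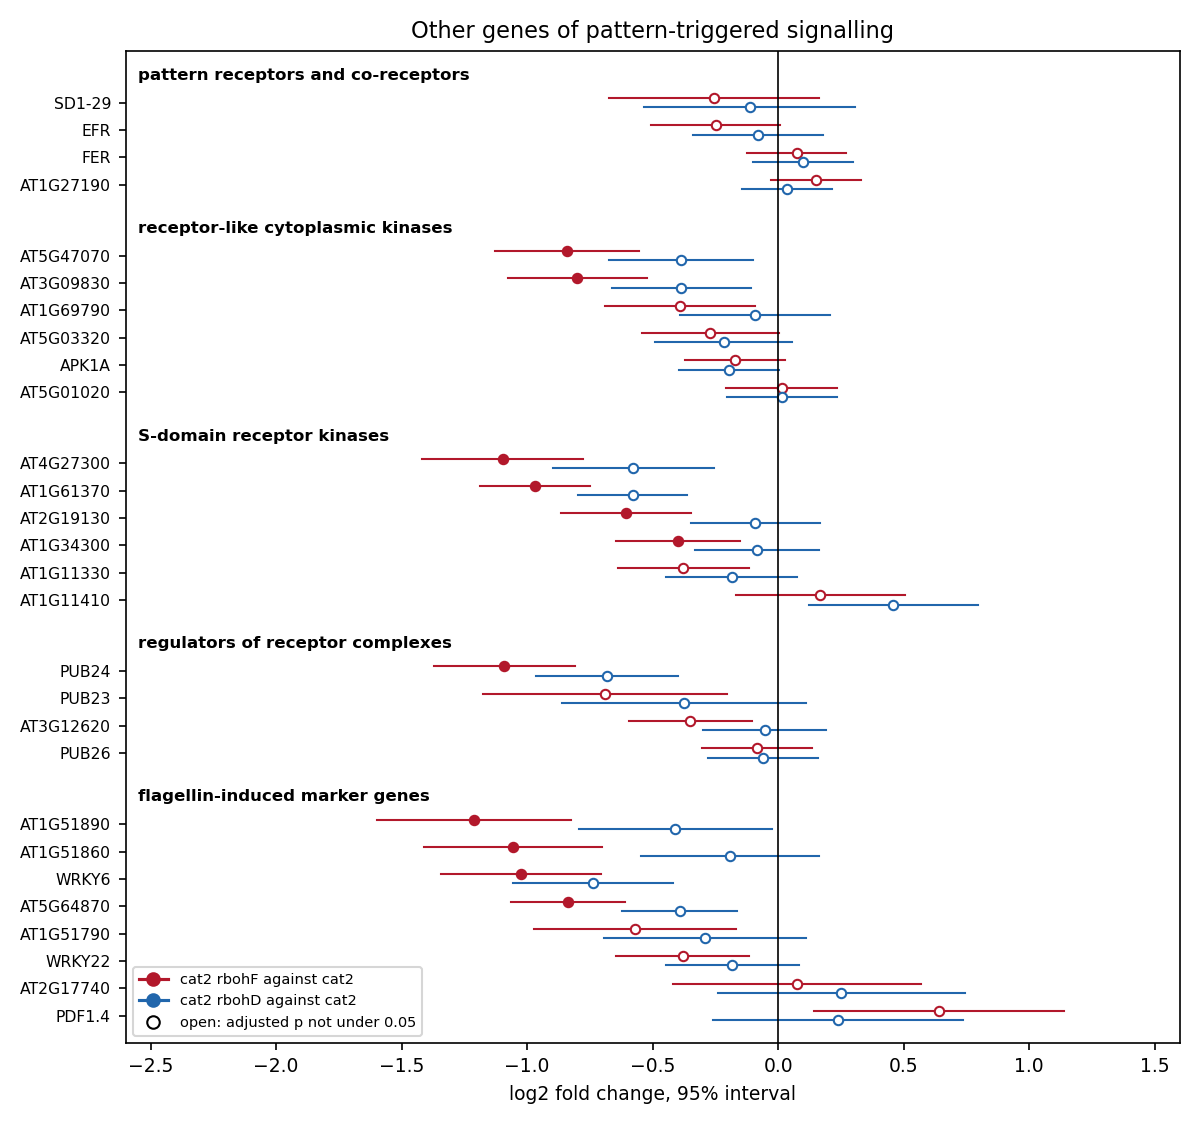
Log2 fold change (points) with 95% interval (lines) of 28 other genes of pattern-triggered signalling, grouped by list, for cat2 rbohF against cat2 (red) and cat2 rbohD against cat2 (blue); filled points had a limma adjusted p under 0.05. Filled red points, 11 in all, lie at -1.21 to -0.40, and no blue point is filled.

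In cat2 rbohD against cat2, none of the 28 genes passed with limma, and 9 had an unadjusted p under 0.05, where 0.187% of all tested probe sets fell and 10.8% had such a p. The nearest to a call were AT1G61370 at -0.58, PUB24 at -0.68 and WRKY6 at -0.74 (limma adjusted p = 0.0651, 0.0859 and 0.103). AT4G27300 was at -0.58, AT3G09830 and AT5G47070 were at -0.39 each, and AT5G64870 was also at -0.39. PUB23 was at -0.37, EFR at -0.08 and FER, the receptor kinase FERONIA, at 0.10. Of the 9, AT1G11410 alone was higher in cat2 rbohD, at 6.86 ± 0.35 against 6.40 ± 0.11 in cat2 (SD, n = 3 each), without overlap (log2 fold change 0.46; limma adjusted p = 0.299). The median of the 28 was -0.18, beside -0.0046 over all tested probe sets. With the replicate number as a block PUB24 passed, AT4G27300 passed without cat2 rbohF replicate 3, and none passed without cat2 rbohD replicate 3.

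In cat2 rbohF against cat2 rbohD, 1 of the 28 genes was called, AT1G51860, where 1.92% of all tested probe sets were called. It averaged 5.86 ± 0.20 in cat2 rbohF and 6.73 ± 0.14 in cat2 rbohD (SD, n = 3 each), a log2 fold change of -0.86 ± 0.16 (SE; limma adjusted p = 0.0389). Its call ended when any 1 of the same 5 arrays as for CRK37 was left out, with a limma adjusted p of at most 0.177. Its log2 fold change stayed between -0.97 and -0.77 with any 1 array left out. Of the genes that did not pass, AT2G19130 was at -0.51, with AT1G61370 at -0.39, AT5G47070 at -0.45, AT3G09830 at -0.41, PUB24 at -0.41, AT3G12620 at -0.30, EFR at -0.17 and AT1G27190 at 0.12. Without cat2 rbohD replicate 3, 8 of the 28 were called, all lower. In that setting 7.67% of all tested probe sets were called in either direction and 4.86% were called lower. None of the 28 was called when 1 of those 5 arrays was left out.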

How the data were processed

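Leaf RNA of 9 samples was measured on Affymetrix arrays, 3 per genotype. The deposited values are log2 expression per probe set, made by the authors with GCRMA, per the submitters' processing notes, which give no version. GCRMA corrects background by probe sequence and makes the arrays' distributions alike, which hides any shift common to most transcripts. Of 22810 probe sets, 64 controls were left out. The filter required the third-highest of the 9 values to exceed 5.14, the 40th percentile of all values. Arrays have no read depth, and the small number of arrays limits precision; the median SE of a log2 fold change was 0.10.

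Comparisons were fitted with limma 3.58.1 (R 4.3.3; lmFit, eBayes, two-sided) with 1 mean per genotype and 6 residual degrees of freedom, and p-values were adjusted by Benjamini-Hochberg over the 13888 probe sets kept. The fit was tested on simulated data. The kinases and lists were chosen with earlier results of these data known. Named genes are the kinases, per list and comparison up to 4 called genes or otherwise the 2 with the smallest p, and the 3 closest profiles per kinase; PDF1.4, AT1G11410 and listed genes called only under an alternative were named after their values were seen. Symbols came from the probe annotation, updated through RefSeq (TAIR10.1, for names and gene order).

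Deviations of same-numbered arrays from their genotype means correlated over probe sets at 0.142, 0.150 and 0.171 between cat2 rbohF and cat2. These numbers were taken to pair the samples of this comparison, on the data alone. The evidence is weak, as the double mutants, not taken as paired, gave -0.113, 0.250 and 0.155. The main fit did not use the pairing, which entered only as the replicate block. That block was also applied to the comparisons with cat2 rbohD, which were not taken as paired. Alternatives were other filters, other between-array scalings, the replicate block, a fit on the 6 arrays compared, weighted arrays, eBayes with a trend or robust, and each array left out.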

Additional observations from a re-analysis of the deposited data

Results flagged for a closer look

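The effects of mutating RBOHF and of mutating RBOHD differed at 1 kinase in the direct comparison of the double mutants. CRK37 had a log2 fold change of -1.26 in cat2 rbohF against cat2 rbohD (limma adjusted p = 0.0320), with log2 fold changes of -1.20 in cat2 rbohF and 0.06 in cat2 rbohD, both against the same cat2 arrays. Among the listed genes of the same signalling, AT1G51860 differed in the same way, at -0.86 (limma adjusted p = 0.0389). Each call ended when any 1 of 5 arrays was left out and in a fit of the 6 arrays compared. With 1 array left out, the log2 fold changes stayed at -1.50 to -1.12 for CRK37 and -0.97 to -0.77 for AT1G51860. Without cat2 rbohD replicate 3, 3 kinases and 8 listed genes were called, all lower in cat2 rbohF. In that setting 4.86% of all tested probe sets were called lower.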

How the results depend on the processing

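With the replicate number as a block, the calls of the 6 kinases did not change in any comparison, and the counts of kinases called were 5, 0 and 1; the numbers were not taken to pair the other comparisons, where correlations of deviations were -0.235, 0.011 and 0.157 (cat2 rbohD with cat2) and -0.113, 0.250 and 0.155 (the double mutants). In cat2 rbohF against cat2, the kinases called ranged from 3 to 5, the listed genes from 10 to 17 and all probe sets from 817 to 2704 with 1 array left out; the listed genes called were 18 with array weights and 17 in a fit of the 6 arrays compared. In cat2 rbohD against cat2, no kinase was called under any alternative, the listed genes called ranged from 0 to 1 and all probe sets from 7 to 35 with 1 array left out. The counts there were 18 probe sets with array weights, 15 with only the 6 arrays compared, and 54 probe sets and 1 listed gene with the replicate block. In cat2 rbohF against cat2 rbohD, the kinases called ranged from 0 to 3, the listed genes from 0 to 8 and all probe sets from 1 to 1065 with 1 array left out. With the stricter filter, 2 kinases, 4 listed genes and 417 probe sets were called, and with array weights 2, 6 and 703. In a fit of the 6 arrays compared the counts were 0, 0 and 2. Without a filter 164 probe sets were called, and 3 listed genes with an intensity trend and 2 with robust eBayes. The direction of CRK37 in cat2 rbohD against cat2 turned without cat2 rbohD replicate 1 or 2, the value ranging from -0.075 to 0.30, and that of FLS2 in cat2 rbohF against cat2 rbohD without cat2 rbohD replicate 1 (-0.23 to 0.14). Neither was called. The causes of these changes were not tested, except that settings with fewer arrays hold fewer samples. B120 and FLS2 did not pass the stricter filter and had no value there. The planned promoter motif search was not run. Signals near 5.14 limit what can be said of B120 and FLS2.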
